A study of Homo sapiens with 6 samples.

Results

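The 10 genes of the insulin-like growth factor (IGF) and insulin system were followed in sorafenib-resistant and sorafenib-sensitive MHCC97H cells. They were taken by gene symbol from the deposited count table, which held all 10 of the 10 names among its 19202 genes: the ligand IGF2, the receptors IGF1R, INSR and IGF2R, the receptor adapters IRS1 and IRS2, and the binding proteins IGFBP1, IGFBP2, IGFBP3 and IGFBP4. MHCC97H is an established human hepatocellular carcinoma line, and sorafenib is a kinase inhibitor given to patients whose liver cancer has advanced. RNA was sequenced from 3 libraries of the resistant cells and 3 libraries of the control cells of the same line, labelled as sensitive to the drug. The labels do not give how resistance was raised, whether the resistant cells are 1 clone, whether drug was present at harvest, or whether the libraries came from separate cultures, so every p-value rests on a spread between libraries that may be technical only.

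The IGF system couples nutrient and growth signals to cell growth. IGF2 is a secreted growth factor that is abundant in fetal liver and is often made again by liver tumours, and it acts through the receptor kinases IGF1R and INSR, whose adapters IRS1 and IRS2 recruit PI3-kinase and so activate AKT and mTOR. IGF2R binds IGF2 without passing on a kinase signal, takes it to lysosomes, and also sorts newly made lysosomal enzymes. Binding proteins hold IGFs outside the cell. IGFBP1 is made mainly by hepatocytes and decidua, and insulin represses its gene through AKT and the FOXO factors.

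Totals were 3745068 to 4961907 counts in the resistant libraries and 1913469 to 5345272 in the control libraries, the lowest being control replicate 1. Levels below are CPM (counts relative to the TMM-adjusted library total), with mean ± SD over n = 3 libraries per group. A log2FC is the log2 fold change of resistant over control cells, given with its standard error (SE). Among non-zero counts 63.6 to 69.1% were even, so both mates of a read pair may have been counted, and counting errors based on them would be too small. Of the 13 hepatocyte and liver cancer markers listed, 10 could be tested, led in level by KRT8 with 1099 ± 101 CPM in resistant and 1276 ± 154 CPM in control cells. ALB stood at 5.53 ± 3.50 CPM in resistant and 17.3 ± 3.75 CPM in control cells and AFP at 3.29 ± 0.450 CPM in resistant and 2.82 ± 1.94 CPM in control cells, while GPC3 had 2 counts in resistant and 0 in control libraries, so the fetal liver and tumour markers AFP and GPC3 were close to absent in both groups. Of the 10 tested markers 3 were called lower (ALB, APOB and SERPINA1) and 0 higher, against 12.3% of all tested genes called lower.

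In resistant cells the ligand gene IGF2 was higher, the receptor genes INSR and IGF1R were lower, and 3 of the 4 binding protein genes were lower, IGFBP1 and IGFBP3 by more than 3-fold. All 10 genes passed the filter on low counts. In the quasi-likelihood test of edgeR, adjusted over 10804 genes and called at 0.05, 1 of the 10 was higher and 5 were lower, against 11.7% of all tested genes called higher and 12.3% called lower (24.1% in either direction). IGF2R, IRS1, IRS2 and IGFBP2 did not pass. The groups did not overlap, with resistant libraries higher, for IGF2, and with resistant libraries lower for INSR, IGFBP1, IGFBP3 and IGFBP4, which was the case for 19.2% and 18.9% of all tested genes. The median log2FC was -0.27 over the 10 genes and -0.00603 over all tested genes.

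**Figure D1:**
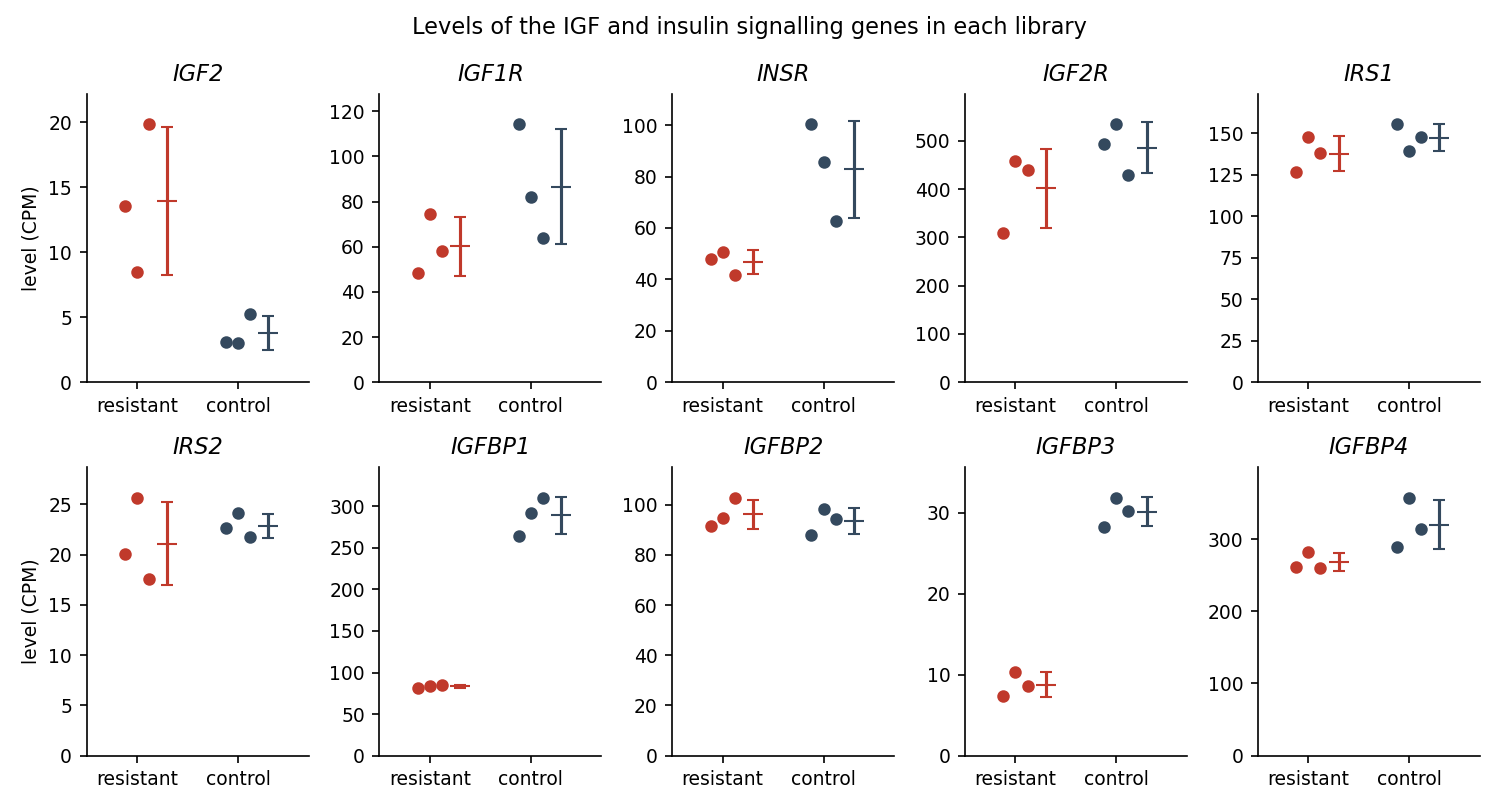
Level in CPM (linear axis from 0) of each of the 10 genes in the 3 resistant libraries (red, left) and the 3 control libraries (dark, right), with the mean and SD beside the points. IGF2 lay higher in every resistant library, INSR, IGFBP1, IGFBP3 and IGFBP4 lay lower, and the groups overlapped for IGF1R, IGF2R, IRS1, IRS2 and IGFBP2.

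The ligand gene IGF2 had 13.5, 8.46 and 19.8 CPM in resistant replicates 1, 2 and 3, against 3.09, 3.01 and 5.28 CPM in control replicates 1, 2 and 3. The lowest resistant library was thus above the highest control library, while the resistant libraries spread more than 2-fold among themselves. The means were 13.9 ± 5.70 CPM in resistant and 3.79 ± 1.29 CPM in control cells (SD, n = 3 each), 3.68-fold apart. The log2FC was 1.87 (SE 0.41) (edgeR, adjusted p = 0.00057), and by log2FC IGF2 ranked 28 from the top of the 10804 genes. The gene remained a weakly expressed one, with 183 counts over the resistant and 40 over the control libraries. IGF2 (Entrez 3481) is annotated at chromosome 11, 2129112 to 2149603, minus strand, in GENCODE 29 (GRCh38). The readthrough gene INS-IGF2, which had 0 counts in all libraries, and the antisense gene IGF2-AS overlap it, and the sources used here do not say whether counting used strand. The paternally expressed IGF2 gene is imprinted and has several promoters, which counts per gene do not separate.

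Resistant replicate 3, which had the highest IGF2 level, also stood apart in some genes of other cell types. The 7 endothelial markers listed summed to 41.1, 52.0 and 138 CPM in resistant replicates 1, 2 and 3, against 66.3, 70.1 and 51.6 CPM in control replicates 1, 2 and 3. VWF had 1.08, 1.41 and 26.2 CPM in the resistant and 0.00 to 1.76 CPM in the control libraries, and CDH5 had 0.00, 0.00 and 19.2 CPM in the resistant and 0.00 to 3.09 CPM in the control libraries. PECAM1, with 6.50, 12.9 and 41.7 CPM in resistant and 43.2, 30.9 and 24.9 CPM in control replicates 1, 2 and 3, did not set that library apart from the controls. KDR had 33.0, 35.7 and 42.6 CPM in resistant and 20.1, 36.3 and 21.1 CPM in control replicates 1, 2 and 3. The 10 fibroblast and stellate markers summed to 25.4, 19.3 and 65.1 CPM in resistant and 20.1, 29.9 and 43.1 CPM in control libraries, and of both lists 5 genes could be tested, with RGS5 alone called (higher). The 8 leukocyte markers summed to 11.6, 10.1 and 7.57 CPM in resistant and 7.20, 6.97 and 14.1 CPM in control replicates 1, 2 and 3. Resistant replicate 3 was thus the lowest resistant library in that sum. No gene of these lists was at 0 in all 6 libraries, TEK was at 0 in the control libraries, and COL1A2 was at 0 in resistant replicates 1 and 2. Without resistant replicate 3 the log2FC of IGF2 was 1.53 (SE 0.50, edgeR, adjusted p = 0.0202). The part of these markers in the level of that library was not tested.

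Both receptors that signal, INSR and IGF1R, fell, and the IGF1R call did not hold without some libraries. INSR, the insulin receptor, had 47.9, 50.8 and 41.7 CPM in resistant replicates 1, 2 and 3, against 100.3, 85.5 and 62.8 CPM in control replicates 1, 2 and 3. The resistant libraries lay close together, and the control libraries spread from just above them to more than 2-fold their level. Means were 46.8 ± 4.62 CPM in resistant and 82.8 ± 18.9 CPM in control cells (SD, n = 3 each), with a log2FC of -0.81 (SE 0.16; edgeR, adjusted p = 0.000123). The gene (Entrez 3643) is annotated at chromosome 19, 7112255 to 7294034, minus strand.

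IGF1R, the main receptor for IGF signals, had 48.2, 74.3 and 58.1 CPM in resistant replicates 1, 2 and 3, against 114, 81.9 and 63.7 CPM in control replicates 1, 2 and 3. The groups overlapped, since resistant replicate 2 was above control replicate 3. The log2FC was -0.50 (SE 0.16), which passed (edgeR, adjusted p = 0.023). The call was lost without control replicate 1, where the log2FC was -0.27 (edgeR, adjusted p = 0.285), and without resistant replicate 1, where it was -0.35 (0.158). It was also lost without resistant replicate 3 or control replicate 2, where the log2FC stayed at -0.46 and -0.53 (edgeR, adjusted p = 0.0657 and 0.055). IGF1R (Entrez 3480) is annotated at chromosome 15, 98648539 to 98964530, plus strand. Among the control libraries INSR and IGF1R stood in the same order, highest in the shallow replicate 1 and lowest in replicate 3.

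The balance of the 2 receptor messages was measured within each library, where scaling plays no part. IGF1R over INSR counts gave ratios of 1.01, 1.46 and 1.39 in resistant replicates 1, 2 and 3, against 1.14, 0.958 and 1.01 in control replicates 1, 2 and 3. On the log2 scale the difference of the means was 0.30, running from 0.19 without resistant replicate 2 to 0.46 without resistant replicate 1, and an exact two-sided permutation test over the libraries gave p = 0.3, where 0.1 is the smallest that 3 against 3 allows, so this test could not have passed 0.05.

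IGF2R, the receptor that clears IGF2, had 308, 457 and 439 CPM in resistant replicates 1, 2 and 3, against 493, 534 and 429 CPM in control replicates 1, 2 and 3. Resistant replicate 1 was the lowest library and the others overlapped the control range. Its log2FC of -0.27 (SE 0.11) did not pass (edgeR, adjusted p = 0.0606). It did pass in the same edgeR test without resistant replicate 2 (adjusted p = 0.0299) or resistant replicate 3 (0.0462), and with limma-voom (0.0344). Without resistant replicate 1 its log2FC was -0.11 (adjusted p = 0.486 in edgeR) and without control replicate 2 it was -0.20 (0.287). The counts of ligand over clearance receptor, IGF2 over IGF2R, were 0.0439, 0.0185 and 0.0452 in resistant replicates 1, 2 and 3, against 0.00626, 0.00565 and 0.0123 in control replicates 1, 2 and 3. The log2 difference of this ratio was 2.13, with p = 0.1 in the exact two-sided permutation test, the smallest the design allows. IGF2R (Entrez 3482) is annotated at chromosome 6, 159969099 to 160113507, plus strand.

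The promoter windows of the receptor genes are shown because both called receptors and IGF2R had entries in the RefSeq table (GRCh38.p14), which gives 250 bases before and 50 after a gene's start. Of the 10 genes, 8 had an entry, and IGF2 and IGFBP1 had none. Capitals mark the E-box CACGTG, which reads the same on both strands and is the core that MYC, USF and MiT/TFE factors share. The windows are chr19:7294365-7294664 on the minus strand for INSR, chr15:98648289-98648588 on the plus strand for IGF1R and chr6:159968832-159969131 on the plus strand for IGF2R.
INSR: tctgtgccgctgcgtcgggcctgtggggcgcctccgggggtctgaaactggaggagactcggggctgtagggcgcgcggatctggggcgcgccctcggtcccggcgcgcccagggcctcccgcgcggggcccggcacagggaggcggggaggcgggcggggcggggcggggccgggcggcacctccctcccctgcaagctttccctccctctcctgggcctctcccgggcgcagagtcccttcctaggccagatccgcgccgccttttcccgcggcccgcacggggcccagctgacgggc
IGF1R: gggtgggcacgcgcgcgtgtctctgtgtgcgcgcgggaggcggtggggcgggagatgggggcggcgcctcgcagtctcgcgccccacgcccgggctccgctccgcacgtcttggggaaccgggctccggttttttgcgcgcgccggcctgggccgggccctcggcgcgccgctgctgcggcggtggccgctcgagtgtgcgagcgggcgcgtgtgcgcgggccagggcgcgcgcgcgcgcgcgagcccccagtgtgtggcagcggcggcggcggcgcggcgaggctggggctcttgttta
IGF2R: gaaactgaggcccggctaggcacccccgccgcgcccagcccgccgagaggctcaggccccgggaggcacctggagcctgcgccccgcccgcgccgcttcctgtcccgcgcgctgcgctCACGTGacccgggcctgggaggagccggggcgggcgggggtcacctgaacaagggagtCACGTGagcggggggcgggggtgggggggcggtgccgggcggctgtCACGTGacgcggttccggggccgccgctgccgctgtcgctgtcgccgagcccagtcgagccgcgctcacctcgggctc
All 3 windows were rich in G and C, with 78.3% in INSR, 79.7% in IGF1R and 78.7% in IGF2R against a median of 58.7% over 35116 promoters of that length. The IGF2R window held 3 E-boxes, starting 132, 74 and 28 bases before the gene's start, while 7.26% of all promoters held at least 1. Among the 8 genes with an entry, the IRS1 window also held 1, starting 35 bases after that gene's start. No E-box stood in the INSR or IGF1R window. These matches are letters in a window and not measured sites. The motif was chosen after the sequences were seen, and the 35116 promoters were not matched for G and C. The share of promoters with an E-box is thus a description only.

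The adapters did not pass the test. IRS1 had 127, 148 and 138 CPM in resistant replicates 1, 2 and 3, against 155, 139 and 148 CPM in control replicates 1, 2 and 3, with a log2FC of -0.09 (SE 0.11). IRS2, which like IRS1 carries the insulin signal in liver, had 20.03, 25.6 and 17.6 CPM in resistant replicates 1, 2 and 3, against 22.6, 24.1 and 21.7 CPM in control replicates 1, 2 and 3. Its log2FC was -0.12 (SE 0.23), and the highest and the lowest library were both resistant ones. The adjusted p from edgeR was 0.595 for IRS1 and 0.759 for IRS2. IRS1 (Entrez 3667) is annotated at chromosome 2, 226731317 to 226799759, and IRS2 (Entrez 8660) at chromosome 13, 109752698 to 109786568, both on the minus strand. The RefSeq window of IRS2, chr13:109786534-109786833 on the minus strand, held the insulin response sequence TGTTTTG 40 bases before the start, a motif present on either strand in 4.92% of all promoters. None of the 8 genes with an entry had the whole FOXO site TGTTTAC on either strand, against 3.42% of all promoters. The IGF1R window ends in TGTTTA, so a site cut by its edge could not be seen. IGFBP1 had no window, and with so few genes a motif this rare may well be missed, so no conclusion is drawn.

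**Figure D2:**
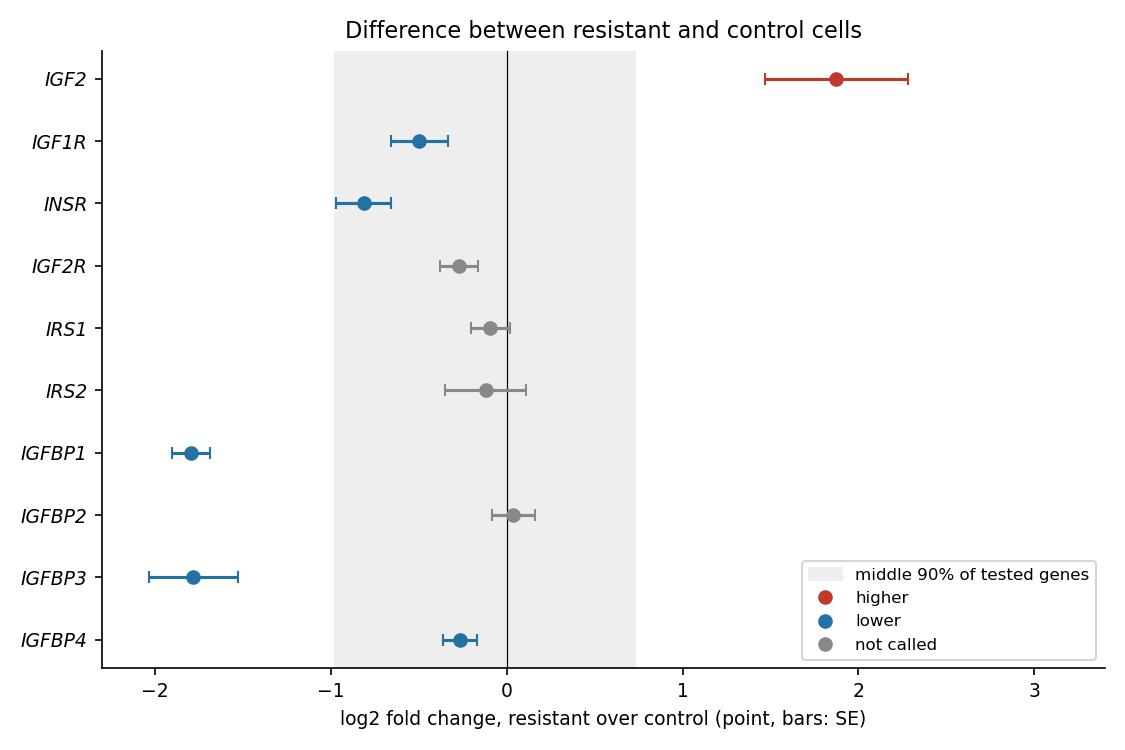
Log2 fold change of each gene, resistant over control (points, with bars of 1 SE), coloured by call at an adjusted p of 0.05. The grey band holds the middle 90% of all tested genes, from -0.98 to 0.73, and IGF2 lies above it while IGFBP1 and IGFBP3 lie below it.

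Among the binding proteins, IGFBP1 and IGFBP3 had the smallest adjusted p-values of the 10 genes. IGFBP1 had 81.7, 83.5 and 85.1 CPM in resistant replicates 1, 2 and 3, against 265, 292 and 310.1 CPM in control replicates 1, 2 and 3. The resistant libraries agreed within a few CPM, and the groups were far apart. Means were 83.4 ± 1.68 CPM in resistant and 289 ± 22.8 CPM in control cells (SD, n = 3 each), 3.46-fold lower in resistant cells. The log2FC was -1.79 (SE 0.11; edgeR, adjusted p = 2.39e-16). By log2FC it ranked 84 from the bottom of the 10804 genes, and its counts were large, 1073 over the resistant and 3123 over the control libraries. Of the 10 tested hepatocyte and liver cancer markers 3 were called, all lower. Their log2FC was -1.62 for ALB, -1.47 for APOB and -1.44 for SERPINA1 (edgeR, adjusted p = 0.00113, 0.00108 and 0.0268). The other tested markers were not called, with log2FC from -0.75 for FGB to 0.24 for AFP, and with KRT18 at -0.09 and HNF4A at 0.05. The 13 hepatocyte and liver cancer markers together, most of whose counts are keratins, summed to 1797 to 2145 CPM in resistant and 1957 to 2416 CPM in control libraries, and their part in the IGFBP1 difference was not tested.

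IGFBP3, the main carrier of IGFs in blood, had 7.31, 10.3 and 8.59 CPM in resistant replicates 1, 2 and 3, against 28.3, 31.8 and 30.2 CPM in control replicates 1, 2 and 3. Means were 8.75 ± 1.52 CPM in resistant and 30.1 ± 1.78 CPM in control cells (SD, n = 3 each), 3.44-fold lower in resistant cells. The log2FC was -1.78 (SE 0.25; edgeR, adjusted p = 9.48e-07), with a rank of 86 from the bottom. IGFBP1 and IGFBP3 thus fell by nearly the same factor from levels that differed widely. The 2 genes are neighbours on chromosome 7, IGFBP1 (Entrez 3484) on the plus strand from 45888357 to 45893668 and IGFBP3 (Entrez 3486) on the minus strand from 45912245 to 45921874, with 18576 bases between them. Of the tested genes next to the pair, TBRG4 beyond IGFBP1 was not called (log2FC 0.17) and TNS3 beyond IGFBP3 was lower (log2FC -0.50, adjusted p = 0.000581 in edgeR).

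IGFBP4, which inhibits IGF action until the protease PAPPA cuts it, had 262, 282 and 259 CPM in resistant replicates 1, 2 and 3, against 289, 357 and 314 CPM in control replicates 1, 2 and 3. The groups did not overlap, but the gap between resistant replicate 2 and control replicate 1 was only a few CPM. The log2FC was -0.26 (SE 0.10; edgeR, adjusted p = 0.043). Leaving out resistant replicate 1 (adjusted p = 0.0962), 2 (0.0602) or 3 (0.172), or control replicate 2 (0.258) or 3 (0.105), ended the call in the same edgeR test. IGFBP4 (Entrez 3487) is annotated at chromosome 17, 40443461 to 40457731, plus strand, and the tested gene before it is TOP2A, the DNA topoisomerase of dividing cells, which was lower (log2FC -0.90).

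IGFBP2, a binding protein that liver tumours often secrete, did not pass the test. It had 91.5, 94.5 and 102.7 CPM in resistant replicates 1, 2 and 3, against 87.9, 98.1 and 94.2 CPM in control replicates 1, 2 and 3. The log2FC was 0.04 (SE 0.12; edgeR, adjusted p = 0.861), and the libraries of the groups were interleaved. IGFBP2 (Entrez 3485) is annotated at chromosome 2, 216632828 to 216664436, plus strand.

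The promoter windows of IGFBP3 and IGFBP4 are shown as those of the called binding protein genes that had an entry, chr7:45921223-45921522 on the minus strand and chr17:40443200-40443499 on the plus strand. Capitals mark a TATATA or a TATAAA.
IGFBP3: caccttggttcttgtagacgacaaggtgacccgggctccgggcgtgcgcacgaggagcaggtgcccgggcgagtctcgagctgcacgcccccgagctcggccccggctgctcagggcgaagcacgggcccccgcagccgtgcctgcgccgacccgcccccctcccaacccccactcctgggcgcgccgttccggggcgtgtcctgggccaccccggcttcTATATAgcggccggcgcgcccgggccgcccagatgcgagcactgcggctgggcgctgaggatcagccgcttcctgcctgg
IGFBP4: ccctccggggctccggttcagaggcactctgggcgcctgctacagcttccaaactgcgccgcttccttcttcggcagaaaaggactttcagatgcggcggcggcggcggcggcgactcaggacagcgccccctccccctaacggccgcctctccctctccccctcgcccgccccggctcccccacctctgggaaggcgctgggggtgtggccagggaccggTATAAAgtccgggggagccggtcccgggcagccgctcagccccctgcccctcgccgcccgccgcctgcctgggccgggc
IGFBP3 had TATATA starting 30 bases before its RefSeq start, a run found on either strand in 3.99% of all promoters. IGFBP4 had TATAAA starting 29 bases before its RefSeq start, found in 11.5%. These runs, too, were chosen after the sequences were seen. Neither run was in the INSR, IGF1R or IGF2R window. G and C made up 74.7% of the IGFBP3 and 74.0% of the IGFBP4 window.

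Taking levels per kilobase of annotated exon, so that genes can be compared, the 4 binding protein genes summed to 194 ± 5.93 CPM per kb in resistant and 346 ± 26.5 CPM per kb in control cells (SD, n = 3 each). IGFBP1 made up 26.0 ± 0.789% of that sum in resistant and 50.5 ± 2.20% in control cells. IGFBP4 made up 62.6 ± 1.37% in resistant and 41.9 ± 2.16% in control cells, IGFBP2 10.4 ± 0.686% in resistant and 5.66 ± 0.149% in control cells, and IGFBP3 0.982 ± 0.141% in resistant and 1.90 ± 0.0506% in control cells. The most abundant binding protein message on this scale was IGFBP4 in resistant cells, and in control cells IGFBP1 and IGFBP4 overlapped.

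**Figure D3:**
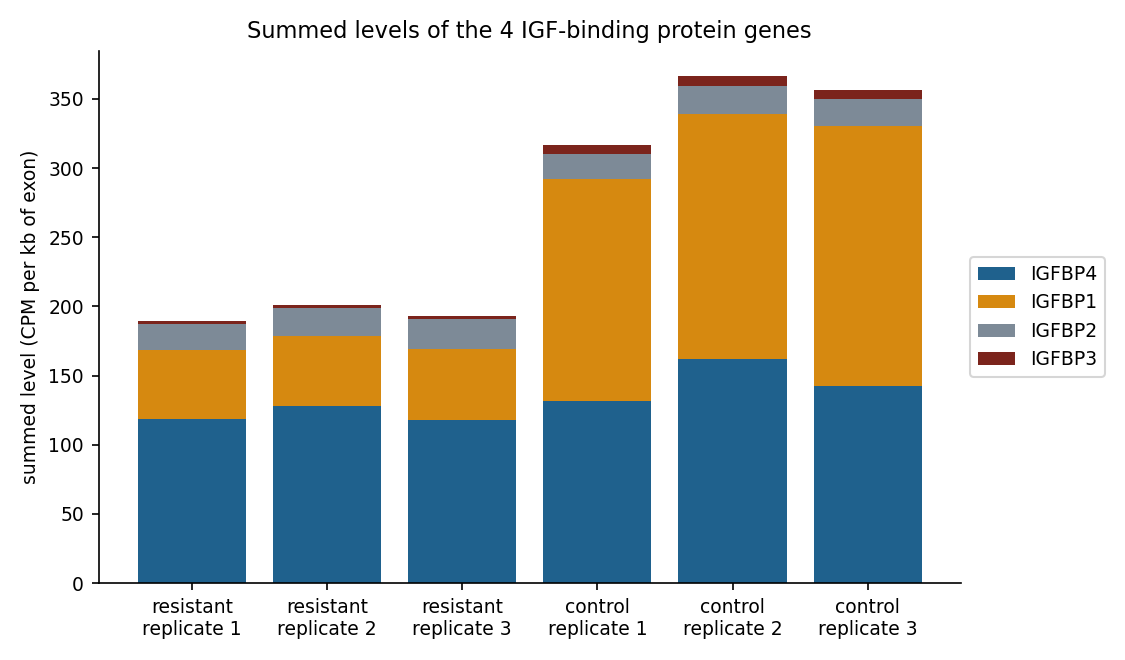
Stacked bars of the level per kilobase of exon of the 4 binding protein genes in each library, from 0. The sum ran from 189 to 201 CPM per kb in the resistant and from 316 to 366 CPM per kb in the control libraries, and most of the difference lay in the IGFBP1 segment.

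In the order of levels per kilobase in resistant cells, IGFBP4 (122 ± 5.68 CPM per kb) and IGFBP1 (50.5 ± 1.02) came first, followed by IGF2R (22.5 ± 4.56), IGFBP2 (20.2 ± 1.22) and IRS1 (13.8 ± 1.07). INSR (4.48 ± 0.442), IGF1R (4.32 ± 0.945), IRS2 (2.59 ± 0.506), IGF2 (1.998 ± 0.817) and IGFBP3 (1.91 ± 0.333 CPM per kb) closed it. Neighbours whose resistant libraries overlapped were IGF2R with IGFBP2, INSR with IGF1R, IRS2 with IGF2 and IGF2 with IGFBP3. In control cells IGF2 was last, at 0.543 ± 0.185 CPM per kb, below IRS2 (2.80 ± 0.149) in every library, and IGFBP3 stood at 6.59 ± 0.389 CPM per kb beside INSR (7.93 ± 1.81) and IGF1R (6.21 ± 1.83), overlapping both. Lengths are those of all annotated exons together, so genes with many isoforms are understated.

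Other genes of the pathway were counted in 7 lists, which together named 132 further symbols. Of these 105 could be tested, 12 were higher and 17 lower, and their median log2FC was 0.00576, so the share called was close to that of all tested genes. The lists differed: the share called ran from 18.2% in the mTOR list to 50% in the lipid and glucose list, against 24.1% of all tested genes. All lists were written with earlier results of these data known, so these shares are a description only. Among other ligands, binding proteins and proteases, 9 of 16 could be tested, with 2 higher and 2 lower. IGF1 had 0 counts in resistant libraries, where 3 counts over the group would be 0.234 CPM, and 1 count in control libraries. INS had no count in any library. STC2, a secreted inhibitor of the PAPPA proteases, rose to 182 ± 24.0 CPM in resistant cells, against 124 ± 18.7 CPM in control cells (adjusted p = 0.000302 in edgeR). PAPPA itself was close to absent, with 11 counts over the resistant and 15 over the control libraries, too few for the test. FURIN, a proprotein convertase that also processes the insulin and IGF receptors, fell to 74.3 ± 8.70 CPM in resistant cells, against 127 ± 5.94 CPM in control cells (adjusted p = 7.78e-06 in edgeR). ADAM12, a metalloproteinase that cuts IGFBPs, was called higher (log2FC 0.67), and lost the call without resistant replicate 3 (adjusted p = 0.0588 in edgeR) or control replicate 2 (0.0512). IGFBPL1 was called lower (log2FC -1.02), and lost the call without resistant replicate 2 (adjusted p = 0.112 in edgeR) or control replicate 3 (0.133).

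Of the IGF2 mRNA-binding proteins, which stabilise IGF2 and other fetal messages, IGF2BP1 was called higher. IGF2BP1 was the only call among 5 tested genes of its list, a share of 20% against 24.1% of all tested genes. It had 151 ± 10.9 CPM in resistant and 117 ± 8.64 CPM in control cells, a log2FC of 0.37 (SE 0.11), with no overlap of libraries. Its adjusted p in edgeR was 0.0115 with all libraries, 0.0536 without resistant replicate 2 and 0.071 without control replicate 3. IGF2BP2 had 79.99 ± 3.39 CPM in resistant and 67.5 ± 2.57 CPM in control cells and did not pass (adjusted p = 0.199 in edgeR), and IGF2BP3 had 69.6 ± 5.21 CPM in resistant and 68.0 ± 11.8 CPM in control cells (0.96).

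Among receptor adapters and modulators 2 of 25 tested genes were higher and 3 lower, a share of 20% against 24.1% of all tested genes. CAV1, the caveola protein that binds insulin receptors at the membrane, rose to 9979 ± 800.0 CPM in resistant cells, against 7181 ± 676 CPM in control cells (log2FC 0.47, adjusted p = 8.06e-06 in edgeR). PTPN1, the phosphatase that switches off the insulin receptor, was called higher (log2FC 0.33), and the docking protein GAB1 (-1.02) and the RAS exchange factor SOS1 (-0.38) were called lower. PTPN1 lost its call without resistant replicate 2 (log2FC 0.32, adjusted p = 0.0667 in edgeR) or control replicate 3 (0.31, adjusted p = 0.0827), with a fold change close to that of all libraries. The log2FC of GAB1 was -0.74 without resistant replicate 3 (adjusted p = 0.0684 in edgeR) and -0.63 without control replicate 1 (adjusted p = 0.148). SOS1 lost its call at log2FC of -0.33 to -0.36 without resistant replicate 1 (adjusted p = 0.06 in edgeR), resistant replicate 3 (0.0765) or control replicate 3 (0.0637).

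In the PI3K and AKT list 1 of 21 tested genes was higher and 3 lower, a share of 19% against 24.1% of all tested genes. INPPL1, the lipid phosphatase SHIP2 that damps insulin signals, fell to 74.9 ± 8.61 CPM in resistant cells, against 111 ± 6.99 CPM in control cells (log2FC -0.57, adjusted p = 0.000808 in edgeR). The phosphatase INPP4A (-0.69) and the kinase GSK3B (-0.41) were called lower and FOXO3 (0.34) higher. The INPP4A call was lost without resistant replicate 1 (adjusted p = 0.0528 in edgeR) or 2 (0.0515), and the GSK3B call without any one of resistant replicates 1 and 3 and control replicates 1, 2 and 3 (0.0549 to 0.206). FOXO3 lost its call without resistant replicate 2 (adjusted p = 0.139 in edgeR) or 3 (0.109), or control replicate 1 (0.113) or 3 (0.062). The kinase genes AKT1, with a log2FC of -0.38 (adjusted p = 0.0782 in edgeR), and AKT2, with 0.15 (0.33), did not pass.

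All 22 genes of the mTOR list could be tested, and 1 was higher and 3 lower. This share was 18.2%, against 24.1% of all tested genes. TSC2, which holds mTOR complex 1 in check, fell to 42.0 ± 4.45 CPM in resistant cells, against 70.9 ± 11.9 CPM in control cells (log2FC -0.75, adjusted p = 0.000369 in edgeR), while its partner TSC1 had 66.3 ± 12.1 CPM in resistant and 62.8 ± 12.4 CPM in control cells and did not pass (0.799). RICTOR, the defining subunit of mTOR complex 2, fell to 105 ± 8.53 CPM in resistant cells, against 157 ± 7.20 CPM in control cells (log2FC -0.58). EIF4E, the cap-binding factor that the 4E-BP proteins restrain, rose to 114 ± 17.9 CPM in resistant cells, against 55.1 ± 11.8 CPM in control cells (log2FC 1.02). The autophagy kinase ULK1, an mTOR substrate, was the fourth call (log2FC -1.31).

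Of the 19 FOXO targets tested, 3 were higher and 6 lower, and IGFBP1 and INSR are among the 6. The share called was 47.4%, against 24.1% of all tested genes, on a list that includes IGFBP1, IRS2 and INSR. That list was written with earlier results of these data known. FBXO32, an E3 ligase subunit, fell to 40.5 ± 8.51 CPM in resistant cells, against 105 ± 0.245 CPM in control cells (log2FC -1.38, adjusted p = 2.35e-09 in edgeR), and the receptor gene ERBB3 had a log2FC of -1.66. TXNIP, an inhibitor of thioredoxin and of glucose uptake, moved the other way, to 32.2 ± 6.998 CPM in resistant cells, against 9.52 ± 5.28 CPM in control cells (log2FC 1.68, adjusted p = 1.07e-05 in edgeR). PCK1 and G6PC, the gluconeogenic genes that define this program in hepatocytes, were close to absent, PCK1 with 2 counts in resistant and 10 in control libraries and G6PC with 2 counts in resistant and 0 in control libraries.

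Among 10 tested lipid and glucose genes that insulin induces, 2 were higher and 3 lower, a share of 50% against 24.1% of all tested genes. SREBF1, the lipogenic transcription factor, fell to 169 ± 9.87 CPM in resistant cells, against 235 ± 13.7 CPM in control cells (log2FC -0.47, adjusted p = 0.000521 in edgeR), and the desaturase SCD fell to 293 ± 14.0 CPM in resistant cells, against 396 ± 22.2 CPM in control cells. The elongase ELOVL6 was called higher (0.62), but not without resistant replicate 2 (adjusted p = 0.106 in edgeR) or control replicate 2 (0.0931), and the carboxylase ACACB was called lower (-1.31), but not without control replicate 3 (0.103).

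**Figure D4:**
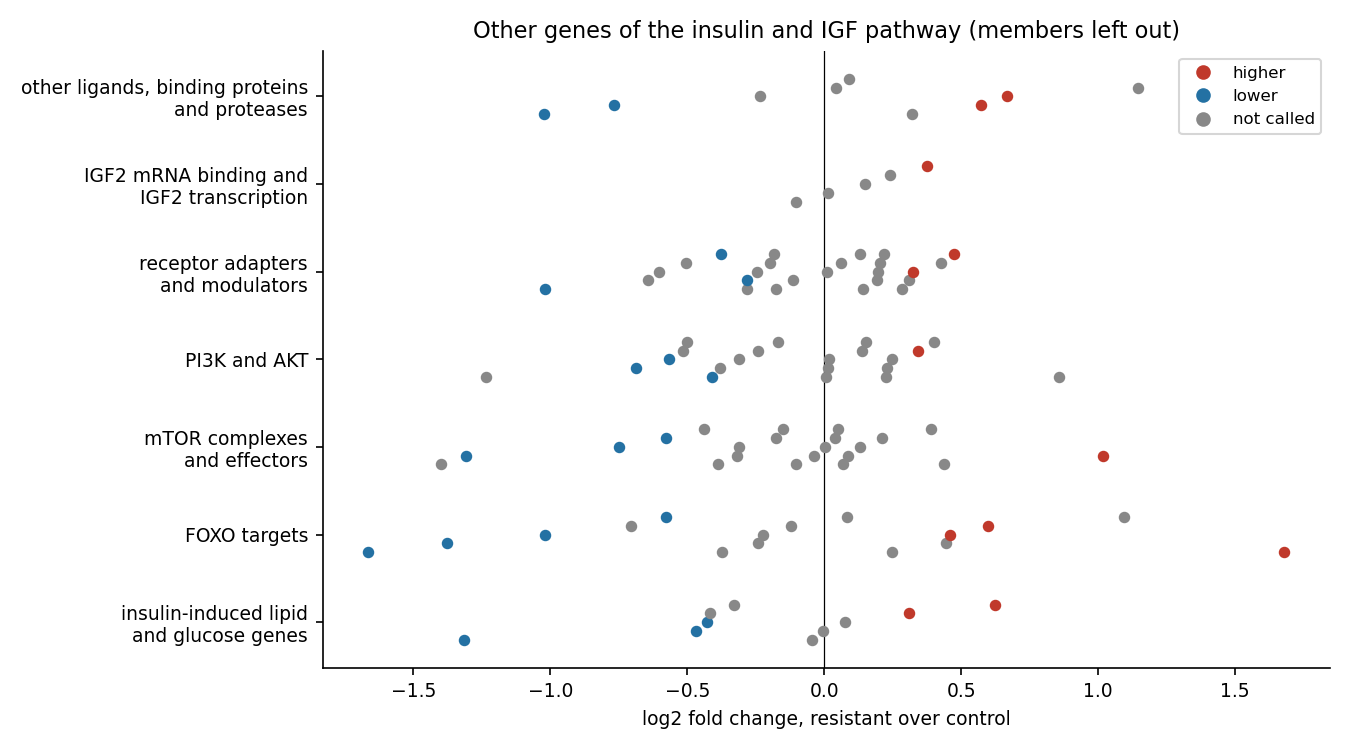
Log2 fold change, resistant over control, of the tested genes of each pathway list, with the 10 genes described above left out and a gene on 2 lists drawn in each, coloured by call at an adjusted p of 0.05. Called genes lie on both sides of 0 in most lists, and the widest range is in the FOXO targets, from ERBB3 at -1.66 to TXNIP at 1.68.

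The genes most like each called gene across the 6 libraries, by Pearson's r of log2 CPM over genes tested, are given as a description. Both groups share in these values, so a gene that separates them can score high for that alone. The nearest to IGFBP1 were CXCL2 (r = 0.999), ENTPD5 (0.998) and SLC40A1 (0.998), and to IGFBP3 they were LRP4, METTL7A and SLC25A44 (0.998 to 0.997). IGF2 was closest to JKAMP (0.994), RAB11FIP2 and LAPTM4A. The closest to INSR were ARNT (0.995), SBNO2 and GMNN, to IGF1R SNRNP200 (0.994), EMP2 and the insulin receptor adapter GRB14 (0.986), and to IGFBP4 APOL2 (0.992), RAB5B and ABCF3. SNRNP200 had a log2FC of only -0.05, so the groups differed little in it.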

How the data were processed

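Per the labels, RNA was isolated (Trizol, then a column) and sequenced with the EasyRNA-seq protocol. Per the submitters' processing notes Trimmomatic, HISAT2 and Bowtie2 were used; the sources used here name no counter, build or annotation and no use of strand. The authors deposited whole-number counts per gene symbol, not normalized, and the 6 columns of the whole table equalled the single-library files. A total of 27 symbols turned into dates were renamed by Entrez ID.

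Genes were filtered with filterByExpr (10804 kept), scaled by TMM and tested with edgeR 4.0.16 (quasi-likelihood, R 4.3.3), group being the only term, with Benjamini-Hochberg adjustment over all kept genes and calls at 0.05. SE is the log2FC over the square root of F. The procedure was tested on simulated data. Limma 3.58.1 and DESeq2 1.42.0 served as alternatives. Exon lengths and spans are from GENCODE 29 (GRCh38) by symbol. The gene with 2 entries, IGF2, takes the one with more exons. Promoters are from RefSeq. Motifs were chosen after these sequences were seen.

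The 10 genes and the lists were chosen with earlier results of these data known. Named were the 10 genes, up to 4 called genes of each pathway list with the smallest p, TSC1, AKT1, AKT2, the IGF2BP genes and IGF1, and for each called gene the 3 most correlated. Other genes named, among them VWF, CDH5, COL1A2, TEK, PCK1, G6PC, INS, ALB, APOB, SERPINA1, AFP, GPC3 and neighbours on the chromosome, were chosen after their values were seen. A few genes covered by the rule are not reported here. Figures used matplotlib 3.10.9.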

Additional observations from a re-analysis of the deposited data

How the results depend on the processing

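Of the 10 genes, IGF2 (log2FC 1.44 to 2.21), INSR (-0.97 to -0.59), IGFBP1 (-1.86 to -1.73) and IGFBP3 (-1.91 to -1.67) kept their direction and call in all 17 alternatives: 3 other scalings, DESeq2, limma-voom, 2 other filters, a replicate block, a threshold of 0.01, halved counts, each library left out, and control replicate 1 left out with resistant replicate 3. The number called lower was 3 at a threshold of 0.01, 3 with those 2 libraries left out, and 3 to 5 with 1 library left out, while 1 gene was higher throughout. It was 4 with the filter of 1 CPM in 3 libraries, and 6 with library totals, limma-voom or halved counts. At a threshold of 0.01, 800 of all tested genes were higher and 851 lower. IGF1R lost its call in 6 alternatives and IGFBP4 in 10, and IGF2R gained one in 7. Among uncalled genes IGFBP2, IRS2, IGF2BP3 and TSC1 changed sign. IGFBP2 ran from -0.00194 to 0.0819 and IRS2 from -0.28 to 0.0106 with 1 library left out, and stood at -0.0423 and 0.000642 with 2 left out. With 1 library left out IGF2BP3 ran from -0.0944 to 0.11 and TSC1 from -0.0529 to 0.25. IGF2BP3 was at -0.00766 with library totals, -0.00689 with halved counts, -0.13 with 2 libraries left out and -0.00984 in limma-voom. The cause was not tested. Of the 24 named pathway genes that were called, 13 kept the call throughout. With the replicate number as a block, 1248 of all genes were higher and 1270 lower, IGF2R was called (adjusted p = 0.0419 in edgeR) and IGFBP4 was not (0.0594). Samples of the same number correlated at -0.0150, 0.033 and -0.00648 in their deviations from the group means, and not every library correlated best with its own number. The depth of control replicate 1, where 1 count is 0.514 CPM, limits low genes such as IGF2.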

Other observations

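Of the binding proteins outside the 10 genes, IGFBP7 had 0, 0 and 52 counts in resistant replicates 1, 2 and 3, against 0, 2 and 10 counts in control replicates 1, 2 and 3, and IGFBP5 had 4, 4 and 22 counts in resistant and 2, 8 and 8 in control libraries. Both were too low for the test. COL1A2, a fibroblast collagen, had 0, 0 and 68 counts in resistant and 0, 12 and 14 in control replicates 1, 2 and 3. IGFBP6 was expressed in all libraries, with 25.8 ± 2.65 CPM in resistant and 24.6 ± 6.02 CPM in control cells (SD, n = 3 each), and did not pass edgeR's test (adjusted p = 0.812). The protease gene PAPPA2 had 5.84 ± 1.28 CPM in resistant and 2.38 ± 1.37 CPM in control cells, with no overlap of libraries and an adjusted p of 0.125 in edgeR.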
